A study of Homo sapiens with 9 samples.

Results

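The expression array that was hybridised with RNA of MM.1S cells, an established human multiple myeloma line, measures many transcribed stretches that carry no gene symbol. The table of values held 67528 transcript clusters, each a set of probes taken to read 1 transcript or locus. Of these, 23781 were paired with 1 gene symbol, 1543 with several and 42204 with none. The clusters described here are the 16589 of these 42204 (39.3%) whose log2 intensity lay above the median of the array on at least 3 of the 9 arrays, which are called unnamed clusters below. Nothing about treatment entered this choice except through that filter. Among clusters with 1 symbol, 71.3% passed the same filter. The cells had been exposed to 5 nM HL13 (3 arrays), to 5 nM LBH589 (3 arrays) or to DMSO, the solvent of both (3 arrays), and RNA was collected after 24 h. HL13 is a code name in the sample labels, and LBH589 is panobinostat. Each array is labelled as a biological replicate, but no label says that separate cultures were used, and the p-values therefore reflect only how far the arrays of a group lie apart.

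Transcript clusters without a symbol are known to include long noncoding RNAs, antisense and intergenic transcripts, pseudogenes, extra exons of named genes and copies of repeated sequence. Panobinostat blocks histone deacetylases, which take acetyl groups off histone tails. Acetylated chromatin is generally open to transcription, and inhibitors of this class are known to raise some transcripts and lower others. The identifier of a cluster gives its chromosome in the 2 characters after TC and then a running number. No cluster was given a gene name here, and a named gene is mentioned only as the holder of a neighbouring number.

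The array medians over transcript clusters lay between 5.26 and 5.31 log2 units, and all values between 1.72 and 14.60. All 8 plasma cell and myeloma markers examined lay above the median on every DMSO array, with DMSO means of 8.24 to 11.11. The summed log2 level of this list was 68.8 in HL13 cells, 68.1 in LBH589 cells and 80.8 in DMSO cells. TNFRSF17 had means of 5.56, 5.49 and 10.05 in the same order. CD38 alone was higher in treated cells, at 9.68, 8.89 and 8.24. Among markers of other blood cells, 1 of 3 B cell (MS4A1), 1 of 4 T and NK cell (CD3D), 2 of 4 monocyte (CD14 and LYZ) and 0 of 2 erythroid markers lay at or below the median on all 9 arrays. The others were above it in DMSO cells, with the highest DMSO means at 5.90 (B cell), 6.56 (T and NK cell), 7.14 (monocyte) and 5.91 (erythroid). The summed log2 level of the B cell list was 15.3 in HL13 cells, 15.2 in LBH589 cells and 15.1 in DMSO cells, that of the T and NK cell list 22.89, 22.85 and 22.97, that of the monocyte list 21.7, 21.8 and 21.6, and that of the erythroid list 10.7, 10.7 and 11.2 in the same order. Their part in the results below was not tested. The first axis of the unnamed clusters held 70.3% of their variance and set the 6 treated arrays apart from the 3 DMSO arrays. The second axis held 11.4% and set HL13 apart from LBH589, and the next, with 5.77%, spread the LBH589 arrays, with replicate 1 and replicate 3 at its ends. The median standard deviation within a group was 0.065 (HL13), 0.091 (LBH589) and 0.072 (DMSO) log2 units for unnamed clusters, against 0.036, 0.059 and 0.041 for clusters with 1 symbol.

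Most unnamed clusters were above the array median throughout: 14266 (86.0%) on all 9 arrays and 2323 on 3 to 8 of them. Another 25615 clusters without a symbol did not pass the filter and were not tested. A cluster that passed through 1 treatment alone had to differ between groups. That held for 42 clusters above the median on the 3 HL13 arrays and no other, 5 on the LBH589 arrays and no other, and 123 on the DMSO arrays and no other. A further 149 were above it on the 6 treated arrays and on no DMSO array. At the edge of the filter, the margin over the median on the array that decided membership (the third highest of the 9) was 8.2e-06 log2 units for the member just inside and -0.00026 for the cluster just outside. No call of detection was used, so each fold change below is that of the listed values, also where a group lies under the array median.

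Some clusters were listed several times with the same values. A total of 1007 unnamed clusters (6.07%) shared all 9 values with at least 1 other cluster, in 255 profiles, so that the 16589 clusters held 15837 distinct profiles. Of these profiles, 91 were spread over more than 1 chromosome label. The largest profile held 35 clusters under 12 labels, at a mean of 8.01 log2 units, and its log2 fold change was -0.05 ± 0.10 with HL13 and 0.06 ± 0.10 with LBH589 (standard error). Only 18 profiles, with 46 members, were shared with a cluster that had a symbol. These symbols include small noncoding RNAs of the SNAR family, antisense RNAs such as MDC1-AS1 and EHMT2-AS1, pseudogenes, and microRNA loci that exist in several copies in the genome. The mature microRNA sequences that RefSeq (GRCh38.p14) lists are shown for the last of these as an example of such copies. The seed, bases 2 to 8 from the 5′ end, is in capitals.
hsa-miR-1244 (same values as TC12000172.hg.1): aAGUAGUUgguuuguaugagaugguu
hsa-miR-3180-5p (same values as TC16000197.hg.1): cUUCCAGAcgcuccgccccacgucg
hsa-miR-3180-3p (same values as TC16000197.hg.1): uGGGGCGGagcuuccggaggcc
hsa-miR-4283 (same values as TC07000362.hg.1): uGGGGCUCagcgaguuu
RefSeq lists 1 and the same hairpin sequence for MIR1244-1 and MIR1244-2, and likewise for MIR4283-1 and MIR4283-2. Total RNA was labelled, and the values of such a cluster are not a measure of the mature microRNA. The profile of TC12000172.hg.1 had 9.01, 8.82 and 8.91 in HL13 cells and 8.33, 8.40 and 8.32 in LBH589 cells, against 9.16, 9.23 and 9.31 in DMSO cells. The 3 groups did not overlap, and the log2 fold change was -0.32 ± 0.06 with HL13 (adjusted p = 0.00142, limma) and -0.88 ± 0.06 with LBH589 (adjusted p = 1.76e-06). The profiles of TC16000197.hg.1 and TC07000362.hg.1 did not pass the threshold, at 0.20 ± 0.10 and 0.01 ± 0.07 with HL13.

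With HL13, 6149 unnamed clusters differed from DMSO (37.1%, limma, adjusted p under 0.05 over all 34694 clusters tested), where 46.2% of all tested clusters did. Of these, 3600 were higher and 2549 lower in HL13 cells, which is 21.7% and 15.4%, beside 24.9% and 21.3% over all tested clusters. At least 2-fold changes were seen for 663 (beside 4.69% of all tested clusters), 397 higher and 266 lower. The shares at 2-fold were 2.39% higher and 1.60% lower, beside 2.53% and 2.16% over all tested clusters. The groups did not overlap for 47.6% of unnamed clusters and 57.4% of all tested clusters. With identical profiles counted as 1, there were 332 rises and 262 falls of at least 2-fold. Among the clusters above the median on all 9 arrays, 272 rose and 203 fell at least 2-fold, which is 1.91% and 1.42% of 14266. The median log2 fold change of unnamed clusters was 0.02, and the middle 90% ran between -0.57 and 0.67. The sign of this median depended on the normalisation. With each array centred on its median it was -0.009, with 3158 clusters higher and 2935 lower. With quantile normalisation it was -0.014, with 3387 higher and 3081 lower.

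The largest rise belonged to TC16000279.hg.1 on chromosome 16. Its log2 intensity was 8.06, 7.53 and 7.90 in HL13 cells and 7.02, 7.28 and 7.60 in LBH589 cells, against 2.89, 3.13 and 3.54 in DMSO cells. Every treated array thus lay more than 3 log2 units above every DMSO array, and DMSO lay far under the array median. The log2 fold change was 4.64 ± 0.20 with HL13 and 4.11 ± 0.20 with LBH589. This cluster passed the filter through its treated arrays alone, so that a rise was fixed by its membership and no p is given. The same holds for TC16000274.hg.1, TC16000280.hg.1, TC04002368.hg.1 and TC05003028.hg.1. TC16000274.hg.1, 5 numbers before it, had 8.02, 7.83 and 8.04 in HL13 cells and 7.21, 7.39 and 7.57 in LBH589 cells, against 3.12, 3.80 and 3.87 in DMSO cells. It showed the same order of groups with no overlap, and its log2 fold change was 4.37 ± 0.18 with HL13 and 3.79 ± 0.18 with LBH589.

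These belonged to a small set of neighbouring numbers. TC16000277.hg.1, TC16000278.hg.1, TC16000279.hg.1 and TC16000280.hg.1 all rose at least 2-fold with both compounds, the first pair with identical values. Their log2 fold changes lay between 2.21 and 4.64 with HL13 and between 1.72 and 4.11 with LBH589. In number they stand between LCMT1P1, a pseudogene, and LCMT1, which encodes a methyltransferase that modifies the catalytic subunit of protein phosphatase 2A. The difference between the compounds was 0.53 log2 units for TC16000279.hg.1 (95% interval 0.07 to 0.99, not adjusted, adjusted p = 0.105) and 0.57 for TC16000274.hg.1 (0.16 to 0.98, adjusted p = 0.0555), neither past the threshold.

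Other large rises were those of clusters above the array median on all 9 arrays. TC0X001624.hg.1 on the X chromosome had 10.93, 10.90 and 10.92 in HL13 cells and 9.25, 9.33 and 9.44 in LBH589 cells, against 6.72, 6.72 and 6.95 in DMSO cells. The 3 groups were fully apart, and the log2 fold change was 4.12 ± 0.07 with HL13 and 2.55 ± 0.07 with LBH589. TC11000697.hg.1, whose number follows that of NDUFV1, a subunit gene of respiratory complex I, had 10.53, 10.37 and 10.40 in HL13 cells and 8.74, 8.90 and 8.90 in LBH589 cells, against 7.07, 7.13 and 7.11 in DMSO cells. It rose by 3.33 ± 0.06 log2 units with HL13 and by 1.74 ± 0.06 with LBH589. TC17002040.hg.1 rose by 3.78 ± 0.05 and 2.60 ± 0.05 log2 units with HL13 and LBH589, and TC06002451.hg.1 by 3.28 ± 0.10 and 2.84 ± 0.10. The DMSO values of TC17002040.hg.1, at 5.46, 5.48 and 5.31, were close to the median. In contrast, all DMSO values of TC04002368.hg.1, which stood 4.25 ± 0.14 higher with HL13 and 2.72 ± 0.14 higher with LBH589, lay under it.

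**Figure D1:**
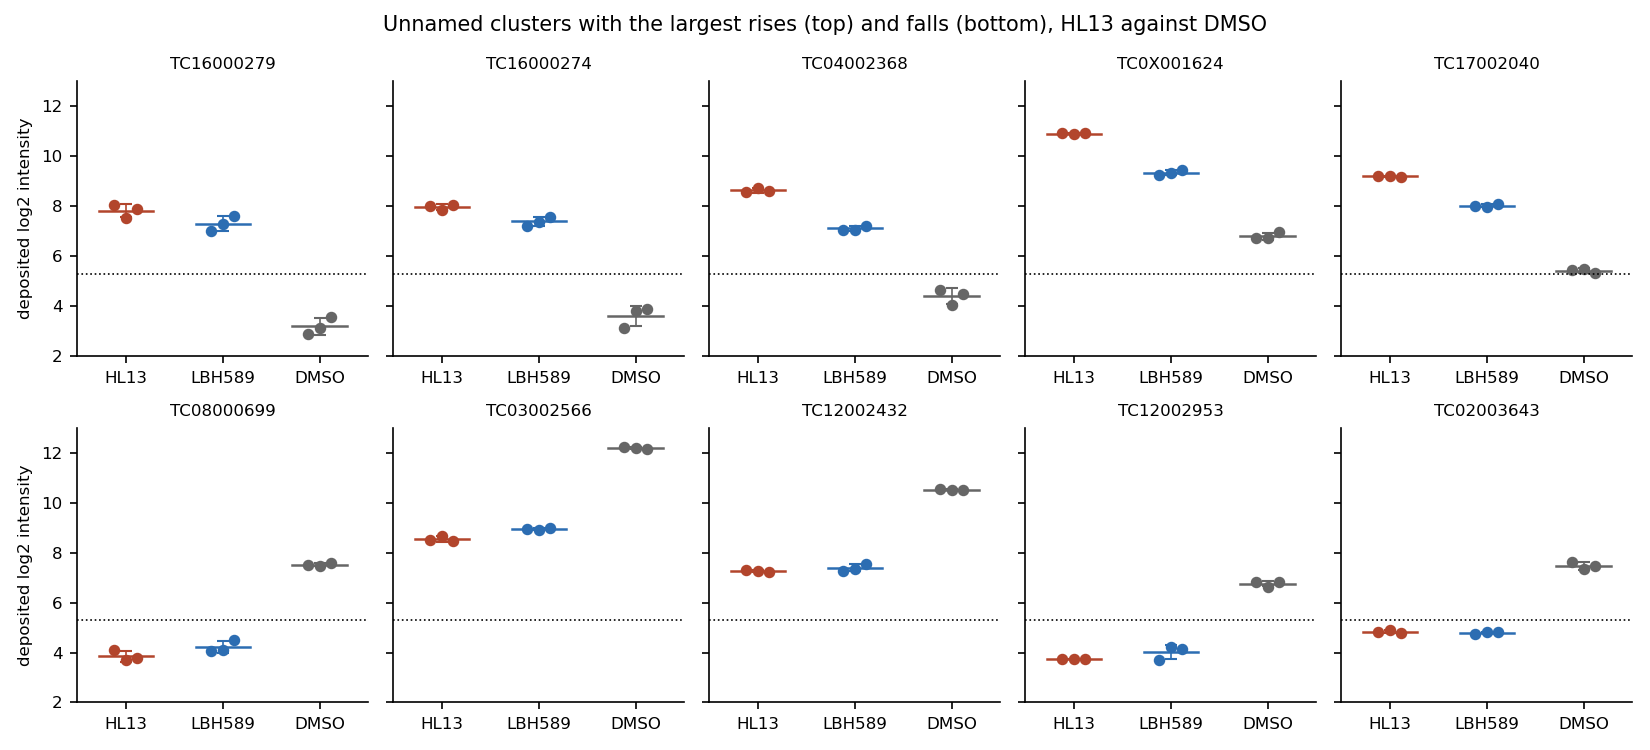
Deposited log2 intensity on each array (points), with group mean (line) and standard deviation (bars, n = 3), for the 5 unnamed clusters with the largest rises and the 5 with the largest falls between HL13 and DMSO; the dotted line is the mean of the 9 array medians. HL13 and LBH589 arrays lie on the same side of DMSO in all 10 panels, from 7.53 to 8.06 with HL13 and from 2.89 to 3.54 with DMSO for TC16000279.hg.1. For TC16000279.hg.1, TC16000274.hg.1 and TC04002368.hg.1 this was fixed by membership, as they passed the filter through their treated arrays alone. The same holds for TC08000699.hg.1, TC12002953.hg.1 and TC02003643.hg.1, which passed it through their DMSO arrays alone.

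The largest fall was that of TC08000699.hg.1 on chromosome 8, with 4.10, 3.69 and 3.76 in HL13 cells and 4.06, 4.08 and 4.51 in LBH589 cells, against 7.52, 7.46 and 7.60 in DMSO cells. Both treated groups lay below the array median, and neither overlapped with DMSO. Its log2 fold change was -3.68 ± 0.13 with HL13 and -3.31 ± 0.13 with LBH589. It passed the filter through its DMSO arrays alone, so that a fall was fixed by its membership and no p is given. The number before it belongs to DEPTOR, an inhibitor of mTOR that is known to be abundant in some myelomas, whose own cluster changed by -2.87 with HL13 and -2.58 with LBH589.

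The largest falls among clusters above the median on all 9 arrays were in bright ones. TC03002566.hg.1 had 8.50, 8.68 and 8.47 in HL13 cells and 8.97, 8.92 and 8.98 in LBH589 cells, against 12.23, 12.20 and 12.18 in DMSO cells. The 3 groups were clearly apart and tight, and the log2 fold change was -3.65 ± 0.05 with HL13 and -3.25 ± 0.05 with LBH589. TC12002432.hg.1 had 7.32, 7.28 and 7.23 in HL13 cells and 7.28, 7.35 and 7.55 in LBH589 cells, against 10.54, 10.53 and 10.51 in DMSO cells. Here the compounds overlapped, with a difference of -0.12 log2 units (95% interval -0.26 to 0.03, adjusted p = 0.253). TC04001381.hg.1, between the numbers of FAM13A and GPRIN3, changed by -2.48 ± 0.10 with HL13 and -2.12 ± 0.10 with LBH589, and the cluster of GPRIN3 by -2.26 and -2.04. The other large falls were of dimmer clusters. TC02000943.hg.1, next in number to GALNT13, which encodes an enzyme that starts O-linked glycans, changed by -2.59 ± 0.11 and -2.83 ± 0.11 with HL13 and LBH589. TC12002953.hg.1, TC02003643.hg.1, TC04002283.hg.1, TC05003348.hg.1 and TC12002564.hg.1 completed the 10 largest falls with HL13, at -3.01 to -2.50 log2 units. Of these 6, TC02000943.hg.1, TC12002953.hg.1, TC02003643.hg.1 and TC05003348.hg.1 were above the median on the DMSO arrays alone, so that their falls too were fixed by membership.

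LBH589 changed fewer unnamed clusters. It differed from DMSO for 5254 of them (31.7%), where 41.4% of all tested clusters did. In LBH589 cells 2867 were higher and 2387 lower, which is 17.3% and 14.4%, beside 21.7% and 19.6% over all tested clusters, and with each array centred on its median the counts were 2492 and 2616, so that falls were in the majority. At least 2-fold changes were seen for 484 (beside 3.5% of all tested clusters), 212 higher and 272 lower. These were 1.28% and 1.64% of the unnamed clusters, beside 1.51% and 1.99% over all tested clusters. The arrays did not overlap for 37.7% of unnamed clusters, beside 47.8% of all tested clusters. At 2-fold, falls thus outnumbered rises with LBH589 and rises outnumbered falls with HL13. Among clusters above the median on all 9 arrays the 2-fold counts with LBH589 were 143 higher and 207 lower.

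Some clusters were named for LBH589 alone. TC05003028.hg.1 had 7.22, 7.23 and 7.08 in HL13 cells and 7.16, 7.34 and 7.53 in LBH589 cells, against 4.84, 4.78 and 4.69 in DMSO cells. It rose by 2.41 ± 0.09 log2 units with HL13 and by 2.58 ± 0.09 with LBH589, and the difference between the compounds was -0.17 (95% interval -0.37 to 0.03, adjusted p = 0.242). TC06002829.hg.1 had 7.77, 7.78 and 7.79 in HL13 cells and 8.24, 8.30 and 8.43 in LBH589 cells, against 6.01, 5.86 and 5.85 in DMSO cells. All its LBH589 arrays lay above all HL13 arrays, with a difference of -0.54 ± 0.06 log2 units for HL13 against LBH589 (adjusted p = 0.000232, limma). TC17002037.hg.1, 3 numbers from TC17002040.hg.1, moved the other way from it: it changed by -2.44 ± 0.06 with HL13 and -2.69 ± 0.06 with LBH589.

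**Figure D2:**
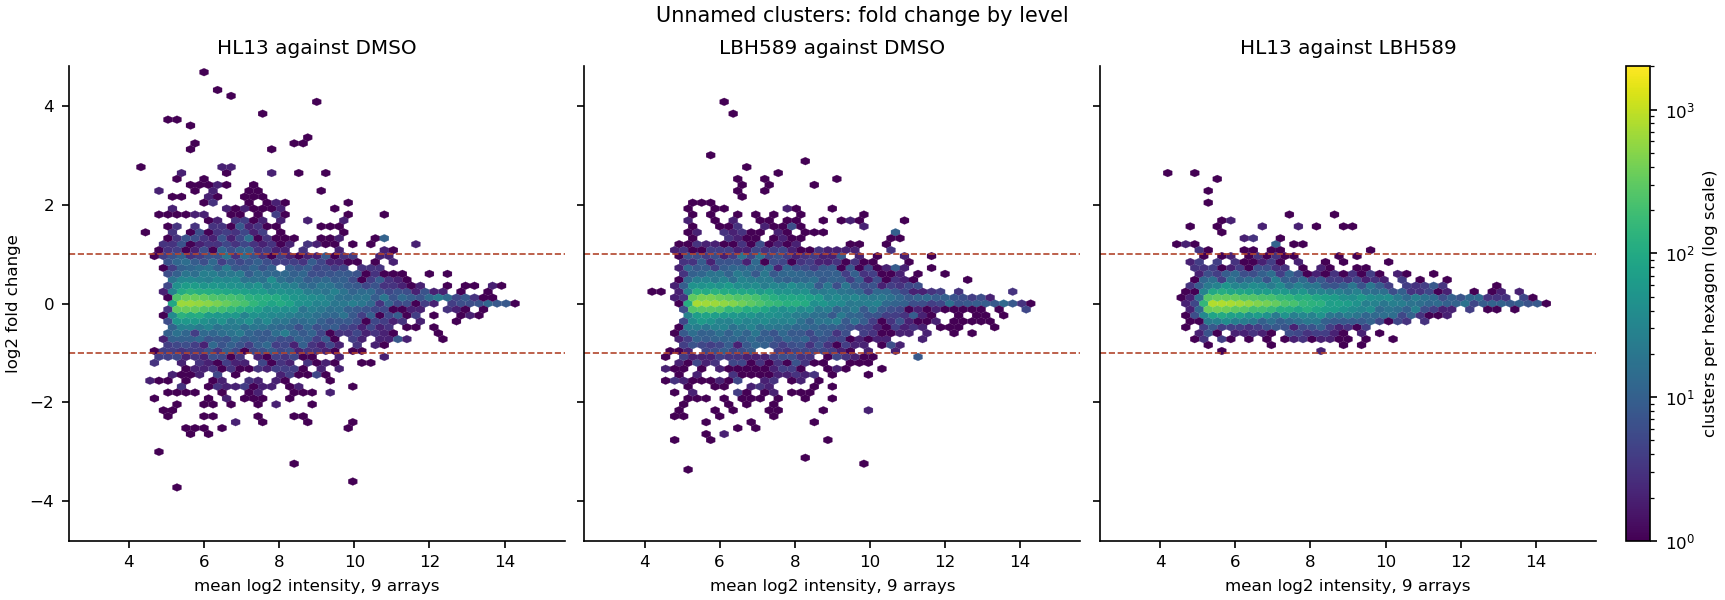
Log2 fold change (vertical axis) against the mean log2 intensity over the 9 arrays (horizontal axis) for the 16589 unnamed clusters, shaded by the number of clusters per hexagon on a log scale; dashed lines mark 2-fold. The spread narrows above about 12 log2 units, and the panel of HL13 against LBH589 holds 53 clusters called above the upper line and 0 below the lower one.

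At the same dose and time, HL13 and LBH589 differed for 2210 unnamed clusters (13.3%), beside 20.4% of all tested clusters. This was the 1 pair of compounds compared, and p-values were adjusted over all 34694 clusters. Of the 2210, 1328 were higher and 882 lower with HL13, which is 8.01% and 5.32%, beside 10.8% and 9.65% over all tested clusters. The arrays did not overlap for 25.6% of unnamed clusters, beside 34.2% of all tested clusters. At 2-fold, 53 were higher with HL13 (0.319%, beside 0.274% of all tested clusters) and 0 lower (beside 0.0173%). The count of 0 comes from limma and is also 0 at an unadjusted p under 0.05, while 882 clusters were lower with HL13 at any size. Of the 14379 clusters that did not pass the threshold, 14340 (99.7%) had a 95% interval of the difference that lay inside 2-fold either way, with a median half-width of 0.154 log2 units.

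The 53 clusters were mostly ones that both compounds raised, to different heights. Against DMSO, 52 of the 53 were called higher with HL13, 32 were called higher with LBH589 and 5 were called lower with LBH589. Their median log2 fold change was 1.93 with HL13 and 0.56 with LBH589, and both rest on the same DMSO arrays. Of the 53, 28 were above the median on all 9 arrays, 19 on no DMSO array and 13 on no LBH589 array, and they held 43 distinct profiles.

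The largest difference was in TC14000421.hg.1, whose number lies between those of SMOC1, a secreted calcium-binding protein, and ADAM21, a membrane metalloprotease. It had 7.00, 7.05 and 7.12 log2 units in HL13 cells and 4.19, 4.54 and 4.58 in LBH589 cells, against 3.44, 3.34 and 3.29 in DMSO cells. HL13 arrays alone lay above the array median. The difference between the compounds was 2.62 ± 0.09 log2 units. This cluster and the next 2 passed the filter through their HL13 arrays alone, so that a difference was fixed by membership and no p is given for it. TC04002104.hg.1 had 6.25, 6.22 and 5.46 in HL13 cells and 3.45, 3.35 and 3.43 in LBH589 cells, against 3.13, 3.19 and 3.37 in DMSO cells. LBH589 and DMSO arrays overlapped here, with a difference of 0.18 log2 units (95% interval -0.23 to 0.60), while HL13 stood 2.56 ± 0.18 above LBH589. TC08002308.hg.1 had 7.62, 7.63 and 7.15 in HL13 cells and 4.98, 4.83 and 4.98 in LBH589 cells, against 4.31, 4.25 and 4.32 in DMSO cells, a difference of 2.54 ± 0.12 between the compounds.

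A bright cluster with the same pattern was TC12002222.hg.1. It had 10.29, 10.26 and 10.26 in HL13 cells and 8.34, 8.56 and 8.45 in LBH589 cells, against 7.09, 6.96 and 6.97 in DMSO cells. Here all groups lay above the array median and none overlapped. It stood 1.82 ± 0.06 log2 units higher with HL13 than with LBH589 (adjusted p = 8.66e-07, limma).

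In the other direction the differences were smaller. The largest was that of TC22000762.hg.1, with 5.48, 5.58 and 4.69 in HL13 cells and 6.27, 6.28 and 6.14 in LBH589 cells, and 5.47, 5.98 and 5.49 in DMSO cells. Its difference was -0.98 ± 0.22 log2 units between the compounds (adjusted p = 0.0128, limma), and neither compound passed the threshold against DMSO. TC04001897.hg.1 and TC21000920.hg.1 were falls that went further with HL13, at -1.28 and -1.61 with HL13 against DMSO and at -0.33 and -0.67 with LBH589 against DMSO. TC08002016.hg.1 was a rise that went further with LBH589, at 1.04 with HL13 and 1.84 with LBH589.

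Among the unnamed clusters, which compound moved a cluster further differed between rises and falls. Of the 397 clusters at least 2-fold higher with HL13 than with DMSO, 233 were also called higher with HL13 than with LBH589, 10 were called lower and 154 were not called. Of the 212 clusters at least 2-fold higher with LBH589 than with DMSO, a choice that favours LBH589, 83 were called higher with HL13 than with LBH589 and 28 lower. Among falls the counts were closer. Of the 266 clusters at least 2-fold lower with HL13, 65 were lower and 19 higher with HL13 than with LBH589. Of the 272 clusters at least 2-fold lower with LBH589, 32 were lower and 56 higher with HL13 than with LBH589. Each set was chosen on arrays that the comparison of the compounds also used, so these counts are a description. The same counts were not made over all tested clusters, so whether the pattern is particular to unnamed clusters was not tested.

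A few unnamed clusters went opposite ways. Of the 16589 unnamed clusters, 54 were called against DMSO with both compounds and in opposite directions. Of these, 24 were higher with HL13 and lower with LBH589, and 30 the reverse. The share of such clusters over all tested clusters was not counted. All 54 were also called in the comparison of the compounds. That follows largely from the choice, as the difference between opposite changes is larger than each of them. TC21000739.hg.1 had 8.44, 8.50 and 8.47 in HL13 cells and 6.67, 6.70 and 6.76 in LBH589 cells, against 6.96, 7.16 and 7.06 in DMSO cells. The DMSO arrays lay between the other groups with no overlap, and the log2 fold change was 1.41 ± 0.05 with HL13 (adjusted p = 3.57e-08, limma) and -0.35 ± 0.05 with LBH589 (adjusted p = 0.000425). TC17002747.hg.1 had 6.69, 7.02 and 6.70 in HL13 cells and 5.47, 5.61 and 5.43 in LBH589 cells, against 5.99, 6.05 and 6.37 in DMSO cells. In the reverse direction TC11002770.hg.1 had 7.08, 7.04 and 7.03 in HL13 cells and 7.69, 7.70 and 7.71 in LBH589 cells, against 7.19, 7.31 and 7.33 in DMSO cells. These reverse changes were under 2-fold against DMSO, at -0.23 ± 0.04 with HL13 and 0.43 ± 0.04 with LBH589.

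**Figure D3:**
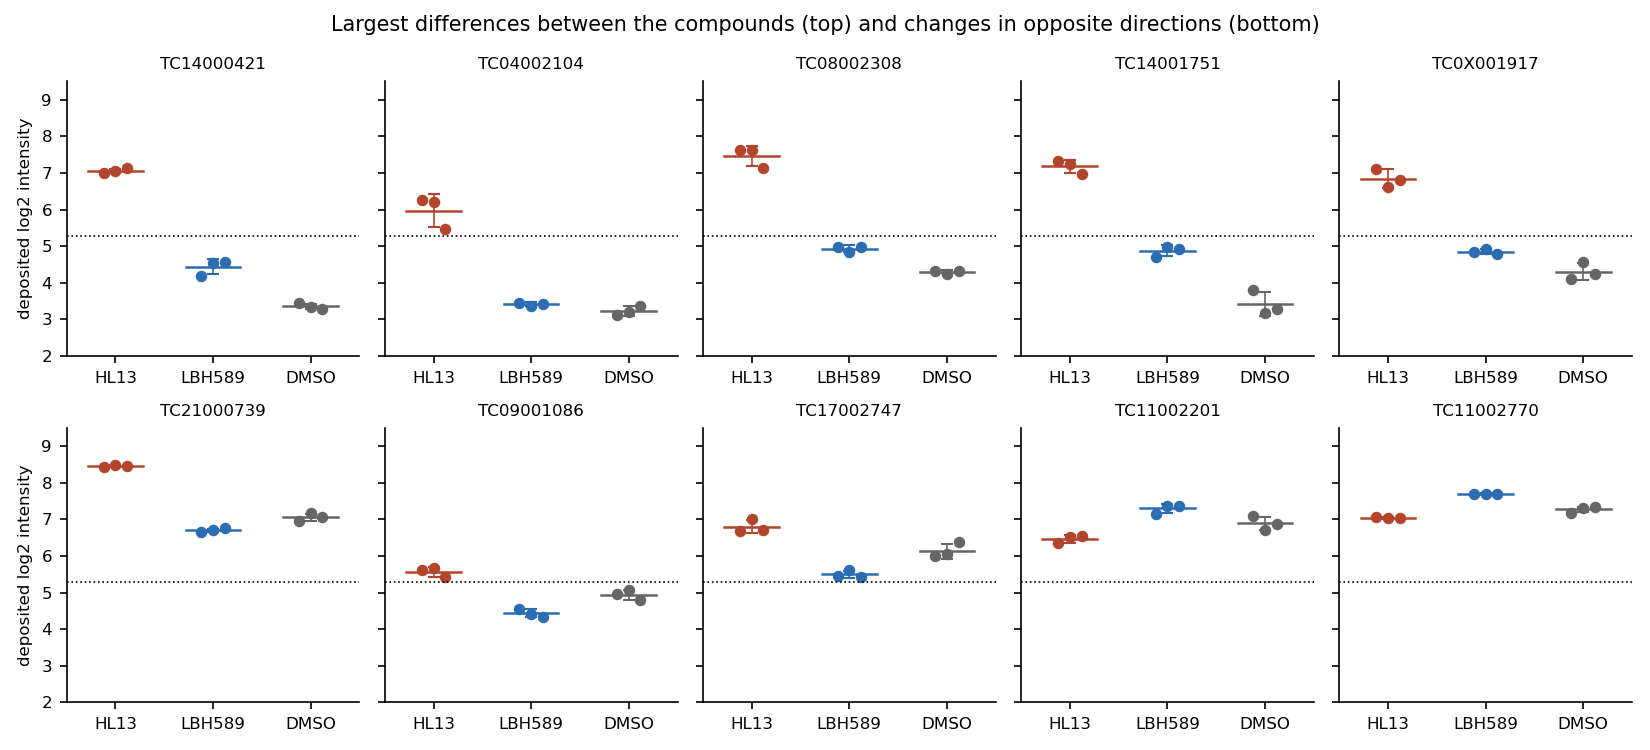
Deposited log2 intensity on each array (points), with group mean (line) and standard deviation (bars, n = 3), for the 5 unnamed clusters with the largest excess of HL13 over LBH589 and for 5 of the 54 clusters called in opposite directions against DMSO; the dotted line is the mean of the 9 array medians. In the first 5, HL13 arrays lie above and LBH589 and DMSO arrays below the dotted line. These 5 and TC09001086.hg.1 passed the filter through their HL13 arrays alone, so that a higher value with HL13 was fixed by membership. TC21000739.hg.1 reads 8.44 to 8.50 with HL13, 6.67 to 6.76 with LBH589 and 6.96 to 7.16 with DMSO.

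Unnamed clusters were dimmer than named ones and were called less often at every level. The median of the mean log2 intensity was 6.38 for unnamed clusters and 7.07 for clusters with 1 symbol. Within 4 level classes of equal size over all tested clusters, divided at 5.95, 6.75 and 7.83 log2 units, 25.4%, 30.5%, 45.5% and 58.4% of unnamed clusters were called between HL13 and DMSO from the dimmest class to the brightest. The shares for clusters with 1 symbol were 31.4%, 37.7%, 61.2% and 74.1%. At 2-fold the difference was less regular: 4.11% of unnamed clusters between 6.75 and 7.83 log2 units rose with HL13, beside 2.88% of clusters with 1 symbol. Copies enter that 4.11%, such as the profiles of TC0Y000098.hg.1 (14 clusters) and TC15002019.hg.1 (10 clusters). The level classes were not counted once per profile, so how much of the difference they make up was not tested. Among clusters with 1 symbol, the 1902 of noncoding genes were called in 37.0% with HL13 and 29.4% with LBH589, each against DMSO, and in 14.5% between the compounds. The unnamed clusters stood at 37.1%, 31.7% and 13.3% in the same order, and the 13875 clusters of protein-coding genes at 58.3%, 54.8% and 29.7%. These shares were set side by side with no test.

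The chromosomes differed in how much of their unnamed part changed. Over the 23 chromosomes with at least 200 unnamed clusters, which held 205 to 1692 each, between 23.9% (chromosome 13) and 61.2% (chromosome 19) of clusters without a symbol passed the filter. Between 26.0% (chromosome 20) and 46.2% (chromosome 15) of those that passed were called between HL13 and DMSO, beside 46.2% of all tested clusters. Clusters with 1 symbol on the same chromosomes stood at 42.5% and 62.5%. With identical values counted as 1 the highest share of unnamed clusters was that of the X chromosome, at 46.1%. Chromosome 15 then stood at 41.7%, below chromosome 3 (43.8%) and chromosome 1 (42.1%). The median log2 fold change per chromosome ran from -0.02 (chromosome 21) to 0.10 (chromosome 15). The remaining members carried the labels of the Y chromosome (77), unplaced sequence (27), the mitochondrion (22) and alternate contigs, of which those of chromosome 6 held 145.

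**Figure D4:**
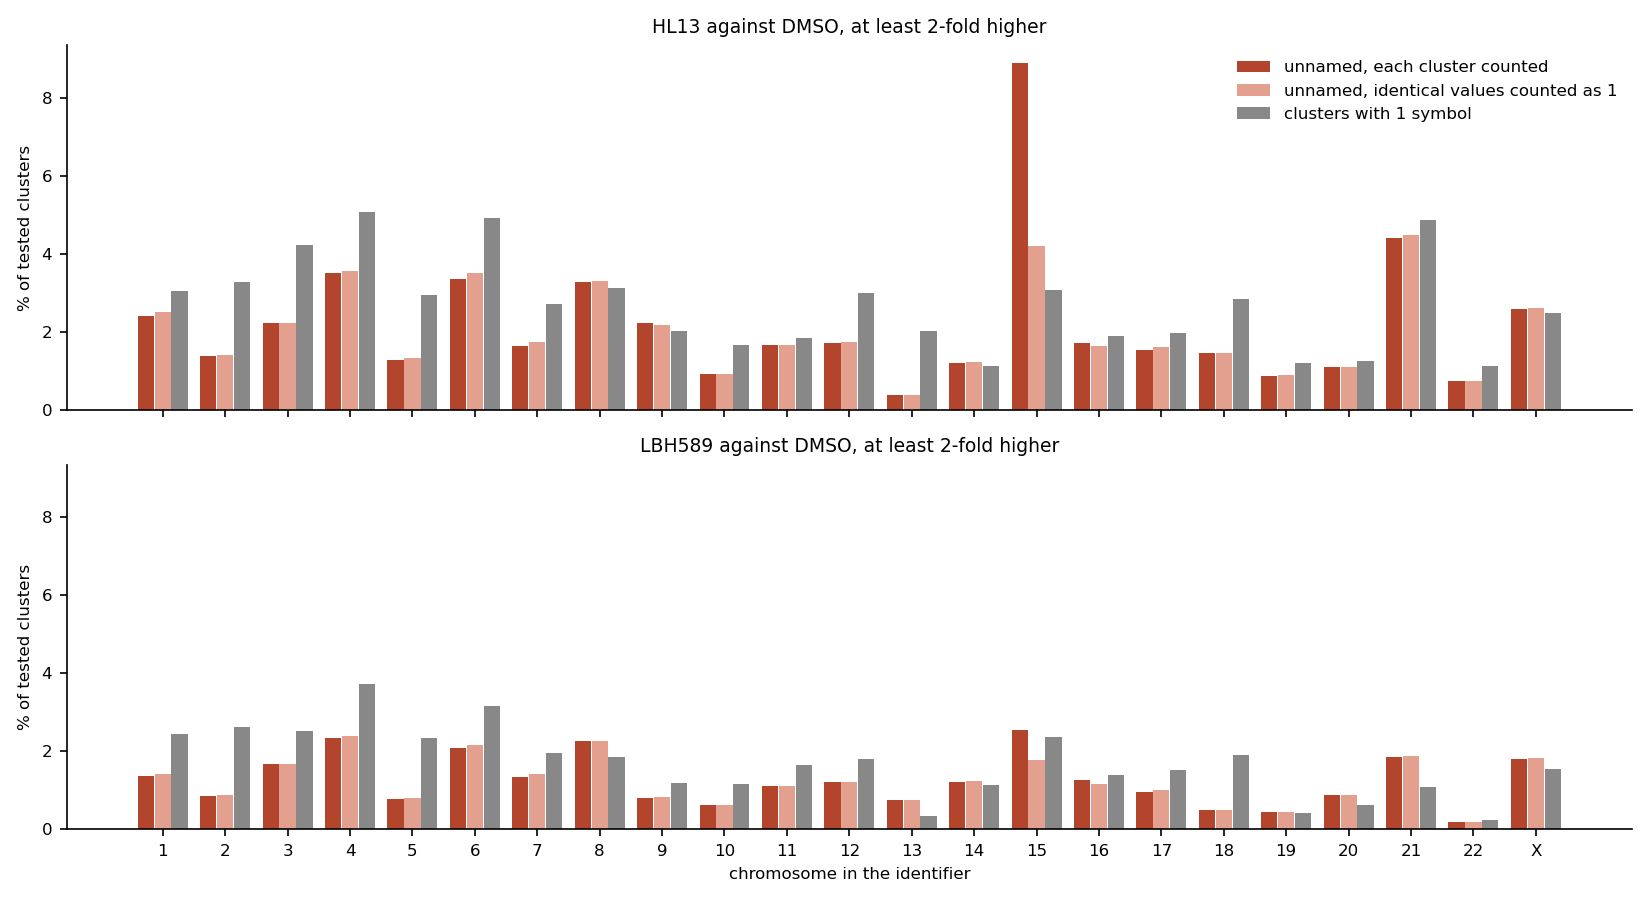
Percent of tested clusters at least 2-fold higher than in DMSO cells at adjusted p under 0.05 with HL13 (upper panel) and LBH589 (lower panel) by the chromosome of the identifier, for unnamed clusters each counted, unnamed clusters with identical values counted as 1, and clusters with 1 symbol. Chromosome 15 reaches 8.91% with HL13 when each cluster is counted and 4.20% when identical values count as 1, beside 2.53% of all tested clusters. Only chromosomes with at least 200 unnamed clusters are shown, so the Y label is left out.

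Among the 23 chromosomes with at least 200 unnamed clusters, chromosome 15 had the largest share of rises with HL13 when each cluster was counted. Of its 943 unnamed clusters, 356 were higher and 80 lower with HL13 than with DMSO, which is 37.8% and 8.48%, beside 24.9% and 21.3% over all tested clusters. Of its 785 profiles, 249 were higher and 78 lower. At 2-fold 84 clusters were higher and 7 lower, which is 8.91% and 0.742%, beside 2.53% and 2.16% over all tested clusters. Of these 84, 60 shared all 9 values with another cluster and held 9 profiles between them, so that the 84 clusters were 33 distinct profiles. Counted once per profile, 4.20% of chromosome 15 rose at least 2-fold with HL13, beside 4.49% on chromosome 21, 3.57% on chromosome 4, 3.51% on chromosome 6 and 0.379% on chromosome 13. Among clusters with 1 symbol on chromosome 15, 3.08% rose at least 2-fold. With LBH589, 24 unnamed clusters of chromosome 15 were at least 2-fold higher and 8 lower, or 14 and 7 counted once per profile. Each cluster counted, this is 2.55% and 0.848%, beside 1.51% and 1.99% over all tested clusters. Of the 84 clusters, 26 were called higher with HL13 than with LBH589. The 77 clusters of the Y label stood above chromosome 15 with HL13. Of these, 39% were higher and 13% at least 2-fold higher, beside 24.9% and 2.53% over all tested clusters. The 2-fold rises of the Y label were only 10 clusters in 6 profiles, or 9.38% counted once per profile. Profiles of 14 and of 10 clusters that rose at least 2-fold with HL13 were listed under both labels, so some of these rises are not particular to chromosome 15.

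The longest run of consecutive numbers that moved together was on chromosome 15. The 13 clusters from TC15002039.hg.1 to TC15002051.hg.1 were all at least 2-fold higher with HL13, with log2 fold changes of 1.03 to 1.12. They held 3 profiles, which together took in 26 clusters of chromosome 15 and none elsewhere. The profile of TC15002039.hg.1 had 7.76, 7.73 and 7.52 in HL13 cells and 7.04, 7.32 and 7.06 in LBH589 cells, against 6.69, 6.38 and 6.62 in DMSO cells. The groups did not overlap, and the log2 fold change was 1.10 ± 0.10 with HL13 and 0.57 ± 0.10 with LBH589. The profile of TC15002043.hg.1 was less tight, with 7.95, 7.28 and 7.46 in HL13 cells and 6.56, 7.57 and 7.29 in LBH589 cells, against 6.51, 6.41 and 6.40 in DMSO cells. HL13 and LBH589 overlapped there, and their difference was 0.43 log2 units (95% interval -0.13 to 0.98). In number the run follows TARS3, a threonyl-tRNA synthetase gene, and precedes a cluster of the olfactory receptor genes OR4F4 and OR4F17.

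In all, 13 runs of at least 3 consecutive numbers moved at least 2-fold the same way with HL13, 8 higher and 5 lower, and 7 did so with LBH589, 2 higher and 5 lower. The runs are not independent. The run of TC15002025.hg.1 to TC15002028.hg.1 held the 3 profiles of the longest run, and only TC15002025.hg.1 in it had values of its own. Runs were not counted once per profile. The following falling runs are given for each compound against the same DMSO arrays. TC11002042.hg.1 to TC11002044.hg.1, between the numbers of KRTAP5-11, a keratin-associated protein gene, and ALG1L9P, a pseudogene, changed by -1.72 to -1.53 log2 units with HL13 and by -1.87 to -1.35 with LBH589. TC12000124.hg.1 to TC12000126.hg.1, between the C-type lectin genes CLEC4A and CLEC6A in number, changed by -1.71 to -1.25 and by -1.84 to -1.23. In this run TC12000126.hg.1 shared its values with TC03000702.hg.1, a cluster of chromosome 3. TC02003641.hg.1 to TC02003643.hg.1 changed by -2.63 to -1.99 and by -2.68 to -1.87. TC15001187.hg.1 to TC15001189.hg.1 took in the cluster of AVEN, an inhibitor of caspase activation, and changed by -2.14 to -1.57 and by -2.27 to -1.65.

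Neighbouring numbers were more alike than distant ones. Among clusters with 1 symbol the number followed the genome. Of 14819 of them with a place in the reference gene table (GRCh38.p14), 99.9% lay on the chromosome of the identifier. Of 13136 pairs at most 5 numbers apart, 99.1% were on the same strand, and 99.2% of these were in rising order of start. Such a check was not possible in long stretches of numbers without symbols. Of the unnamed clusters, 7413 lay within 5 numbers of a named cluster and 9176 lay in long stretches of numbers without symbols. Between an interleaved unnamed cluster and the next number, where that was also without a symbol, the log2 fold changes of HL13 against DMSO correlated with Pearson r = 0.42 over 1816 pairs, and at 10 numbers apart with 0.11 over 1424 pairs. In the stretches without symbols r was 0.25 over 4765 pairs at 1 number apart and 0.06 over 4395 pairs at 3. Where the next number had a symbol, r was 0.17 over 2560 pairs. Over all interleaved pairs 1 number apart r was 0.28 (4536 pairs), and 0.23 without chromosome 15 (4228 pairs). Pairs with identical values were left out. The pairs share all arrays, and clusters are not independent, so these values are a description.

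**Figure D5:**
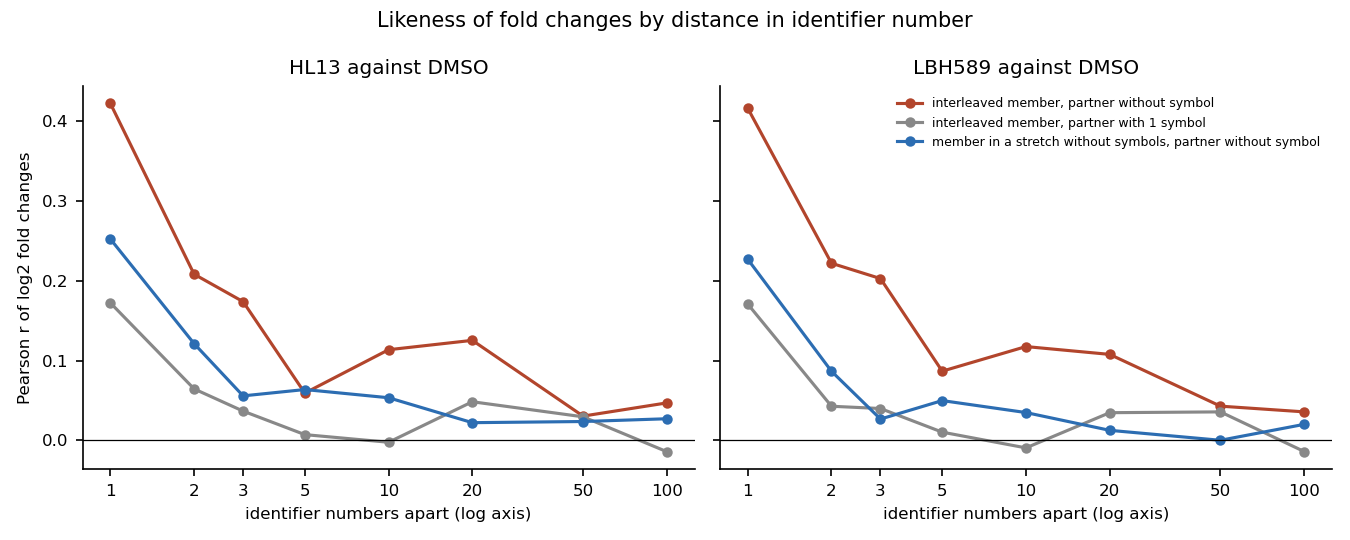
Pearson correlation of log2 fold changes (vertical axis) between an unnamed cluster and the cluster a given count of identifier numbers further on (horizontal axis, log scale), for HL13 against DMSO and LBH589 against DMSO, by the kind of pair. With HL13 it is 0.42 at 1 number and 0.05 at 100 numbers between interleaved clusters without symbols, and 0.17 at 1 number where the partner has a symbol.

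A minority of the unnamed clusters that changed at least 2-fold had a named neighbour that did so in the same direction. The share was higher than over all unnamed clusters with such a neighbour. Of 71 interleaved unnamed clusters at least 2-fold higher with HL13 whose next number was a tested named cluster, 11 (15.5%) had a named neighbour that also rose at least 2-fold, beside 3.29% over all 4101 unnamed clusters with such a neighbour. Of 47 that fell, 10 (21.3%) had a neighbour that fell at least 2-fold, beside 3.76%. With LBH589 the counts were 7 of 41 (17.1%, beside 2.24%) and 11 of 50 (22%, beside 3.12%). Called in the same direction at any size were the neighbours of 46 of the 71 and 31 of the 47 with HL13, and of 27 of the 41 and 30 of the 50 with LBH589. At any size the share over all such unnamed clusters was not counted. Of all tested clusters with 1 symbol, 27.7% were called higher and 26.8% lower with HL13, and 25.9% and 24.5% with LBH589. An unnamed cluster can have a named neighbour on both sides, so these shares are not the same measure.

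Among rising pairs, TC16000557.hg.1 rose by 2.10 ± 0.11 log2 units with HL13 next to ZFP90, a zinc finger gene, which rose by 2.01. TC16002035.hg.1 rose by 1.34 ± 0.11 next to MT2A, a metallothionein gene that buffers zinc and copper, which rose by 3.58. TC02002624.hg.1 rose by 1.18 ± 0.04 next to STAT4, a transcription factor of cytokine signalling, at 1.61. TC19000116.hg.1 rose by 1.31 ± 0.06 next to TNFSF9, the ligand of the T cell receptor 4-1BB, at 1.65. TC07000215.hg.1 rose by 1.93 ± 0.29 with HL13 and by 2.27 ± 0.29 with LBH589 next to BBS9, a component of a ciliary transport complex, which stood at 1.24 and 1.55.

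Among falling pairs, TC15001188.hg.1 changed by -1.82 ± 0.11 with HL13 next to AVEN at -1.57. TC21000497.hg.1 changed by -1.72 ± 0.09 next to WDR4, a subunit of a transfer RNA methyltransferase, at -1.13. TC12000844.hg.1 changed by -1.71 ± 0.09 next to UNG, which removes uracil from DNA, at -1.04. TC11002191.hg.1 changed by -1.14 ± 0.09 next to SLC36A4, an amino acid transporter gene, at -1.11. Whether such a pair reads 1 transcript or several could not be told from the values.

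The brightest clusters of the array were largely unnamed. Of the 100 clusters with the highest mean, 74 had no symbol, and 14 of these carried the mitochondrial label. TC01002863.hg.1 was the brightest unnamed cluster, with 14.35, 14.29 and 14.31 in HL13 cells and 14.28, 14.31 and 14.31 in LBH589 cells, against 14.31, 14.28 and 14.29 in DMSO cells. The groups overlapped, and the 95% interval of the log2 fold change was -0.05 to 0.10 with HL13. The highest value of the table was 14.60, and whether values so near the top of the scale can show a change was not tested. The profile of TC02000740.hg.1, which 5 clusters on different chromosomes shared, read 14.10, 14.03 and 14.08 in HL13 cells, 13.99, 14.03 and 14.09 in LBH589 cells and 14.10, 14.14 and 14.12 in DMSO cells.

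All 22 clusters with the mitochondrial label passed the filter, at means of 10.19 to 14.04 and a median of 13.40 log2 units. Mitochondrial DNA encodes proteins of the respiratory chain together with ribosomal and transfer RNAs. The clusters changed by -0.14 to 0.26 log2 units with HL13 and by -0.07 to 0.13 with LBH589, against DMSO. With HL13, 3 were called higher (13.6%, beside 24.9% of all tested clusters), and with LBH589 0 were called by limma, and also 0 at an unadjusted p under 0.05. The 3 were TC0M000008.hg.1, TC0M000016.hg.1 and TC0M000017.hg.1, at 0.26 ± 0.09, 0.24 ± 0.05 and 0.25 ± 0.05 log2 units. TC0M000016.hg.1 read 11.32, 11.21 and 11.26 in HL13 cells and 10.98, 11.09 and 10.91 in LBH589 cells, against 11.02, 10.98 and 11.06 in DMSO cells. Its HL13 arrays lay above all others, while LBH589 and DMSO overlapped.

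Alternate contigs of chromosome 6, which hold other versions of the major histocompatibility region, gave 145 unnamed clusters. Of these, 96 shared all values with another cluster, so that they were 76 profiles. With HL13, 47 were called higher and 6 lower than with DMSO, which is 32.4% and 4.14%, beside 24.9% and 21.3% over all tested clusters. Of the 76 profiles, 27 were higher and 5 lower. At least 2-fold rises were seen for 7 clusters (4.83%, beside 2.53% of all tested clusters), in 2 profiles. The profile of TC6_apd_hap1000027.hg.1, listed for 5 contigs, rose by 1.29 log2 units with HL13 and by 0.65 with LBH589.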

How the data were processed

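MM.1S cells were profiled on 9 Affymetrix human transcriptome arrays. The deposited table holds log2 intensities, 1 column per array, which the authors had already summarised and normalised. The tools and genome build used for this are not given in the sources used here, and the study's methods describe RNA sequencing and name no test for arrays. No column was left out. Of 70523 rows, 2995 are no transcript cluster (exon, junction and control probe sets) and were set aside. Gene symbols came from the platform annotation, in which the 42204 clusters without a symbol are not listed.

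Groups were taken from the sample titles. The filter kept clusters above the array's median on at least 3 of 9 arrays. limma 3.58.1 (R 4.3.3) fitted all 34694 such clusters with 1 mean per group and no other term. P-values were two-sided and Benjamini-Hochberg adjusted over all of them, called under 0.05, and 2-fold means a log2 fold change of 1 or more in size. The ± after a log2 fold change is its standard error. The script was tested on simulated data. The number of arrays limits the precision, and 95% intervals were not adjusted.

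Named clusters were the 10 largest rises and falls per comparison among called clusters whose arrays do not overlap, the 10 brightest, the 5 largest opposite changes each way and the longest runs of numbers. Named neighbours, mitochondrial clusters, shared profiles and shorter runs were added after their values were seen. The members and lists were chosen with earlier results of these data known. Runs are consecutive identifier numbers, all tested and all changed at least 2-fold the same way. The reference gene table (GRCh38.p14) served only for gene types and gene order. Alternatives were other normalisation, centring, filters, variance priors, arrays and a replicate block.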

Additional observations from a re-analysis of the deposited data

Results flagged for a closer look

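The 10 unnamed clusters below were singled out because HL13 and LBH589 moved them in opposite directions against DMSO (limma, adjusted over all tested clusters). The direct comparison of the compounds also passed the threshold, which follows largely from that choice. Higher with HL13 and lower with LBH589 were TC21000739.hg.1 (log2 difference HL13 over LBH589 1.76), TC09000302.hg.1 (1.55), TC17002747.hg.1 (1.30), TC09001086.hg.1 (1.12) and TC09002494.hg.1 (0.89). TC09001086.hg.1 passed the filter through its HL13 arrays alone. Its rise with HL13 and its difference between the compounds were thus fixed by membership. Lower with HL13 and higher with LBH589 were TC11002201.hg.1 (-0.83), TC07003176.hg.1 (-0.72), TC07002584.hg.1 (-0.67), TC11002770.hg.1 (-0.65) and TC05002395.hg.1 (-0.64). For TC09000302.hg.1 and TC07003176.hg.1 the calls against DMSO with both compounds were lost under some of the alternatives run (arrays left out or no filter, among others), and for TC09002494.hg.1 and TC07002584.hg.1 1 of the calls each (with LBH589 for the first, with HL13 for the second) was lost with an array left out. Under those settings the opposite call does not stand. In TC09000302.hg.1 the LBH589 arrays were spread, at 4.16, 5.38 and 4.96, against 6.52, 6.16 and 6.47 with HL13 and 5.65, 5.50 and 5.65 with DMSO.

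The 2995 rows that are no transcript cluster also held signal that no comparison above uses. With HL13, 12 of them lay at least 2-fold above and 99 at least 2-fold below DMSO with no overlap of the arrays, and with LBH589 23 lay above and 58 below. None of the 155 ERCC control rows was among these. No test was run on these rows.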

How the results depend on the processing

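With an array left out in turn, 5428 to 6480 unnamed clusters were called between HL13 and DMSO (3097 to 3811 higher, 2278 to 2669 lower), 4586 to 5535 between LBH589 and DMSO (2411 to 3159 higher, 2175 to 2376 lower) and 1673 to 2258 between HL13 and LBH589 (1011 to 1291 higher, 649 to 1081 lower). At 2-fold the ranges were 659 to 701 (392 to 437 higher, 260 to 278 lower), 482 to 502 (193 to 245 higher, 257 to 290 lower) and 42 to 59 (41 to 58 higher, 0 to 1 lower). Asking for a value above the 75th percentile gave 3938 calls with HL13 (2266 higher, 1672 lower) and 1875 rises with LBH589. With the filter at the median on all 9 arrays, 28 clusters were at least 2-fold higher with HL13 than with LBH589, and with unnamed clusters alone in the fit 567 were lower. The other counts stayed within 1.5 times the reported ones under the alternatives run, including identical profiles counted as 1, an alternative chosen after seeing the data. Centring each array on its median left 2492 rises and 2616 falls with LBH589, so that falls were then in the majority, while HL13 kept more rises (3158 against 2935).

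Arrays of different groups with the same replicate number did not deviate together (correlations -0.22 to 0.03), so the numbers were not taken as pairs. With the replicate block in the fit, 5804, 4953 and 1827 unnamed clusters were called with HL13 and with LBH589 relative to DMSO and between the compounds.

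The named clusters below were chosen as called changes, most of them the largest. Where a cluster passed the filter through 1 group alone, its change was fixed by membership. That most calls stayed is therefore no check of them. Of 110 results for named clusters, 104 stayed past the threshold under every alternative run, and none changed sign. The other 6 belong to TC09000302.hg.1, TC09002494.hg.1, TC07003176.hg.1 and TC07002584.hg.1, all among the opposite changes. The rise of TC09000302.hg.1 with HL13 had an adjusted p (limma) of up to 0.0923 and its fall with LBH589 of up to 0.0936. The annotation lists no cluster with an empty symbol, so that alternative did not apply. Scanner signals and detection calls were not used here, so what the dimmest clusters can show is unknown.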
